A study of Mus musculus with 9 samples.

Results

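Hmgcs1, Sqle, Idi1, Insig1, Fdps, Lss, Dhcr7 and Srebf2 are 8 genes of cholesterol synthesis and its control, and their mRNA was described here in 9 mouse kidney libraries. They were taken by name from the 54532 gene identifiers of the count tables, and all 8 passed the filter on low counts. Although the set was labelled as synthesis and uptake genes, none of the 8 imports sterols, so receptors and transporters were read from separate lists. Each of the 3 groups held 3 libraries of polyadenylated RNA, and all mice were of the C57BL/6J background. The first group was wild type. The second was Trex1-/- given PBS, and the third was Trex1-/- given SN-011, an antagonist of STING, both over 2 weeks. TREX1 is an exonuclease that removes DNA from the cytosol, and STING is the adaptor by which the DNA sensor cGAS starts an interferon response. The knockout was present in every cell of the body from conception, and the Trex1-/- mice were about a month old at the first injection. These mice came from matings of heterozygotes, whereas wild-type mice were purchased at 4 to 8 weeks of age, so genotype and origin cannot be told apart. No injection of the wild-type mice, and no sex or exact age of the individual animals, is given in the sources used here. The labels do not say that libraries of a group came from separate animals, so p-values measure the spread between libraries only.

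The libraries held 16118813 to 21928965 assigned counts, with reads at 23180 to 24657 genes. Levels are given as CPM, counts scaled to a common library size by TMM, the trimmed mean of M-values. Markers of kidney epithelium were present throughout, with summed levels of 8131 to 9996 CPM for 6 proximal tubule genes and 348 to 474 CPM for 4 podocyte genes. No library, including those of wild type, had a count for Trex1 (0 of 9). Since all of its 1147 exon bases (100%) also lie in exons of Atrip, the counts of Trex1 do not check the genotype. Atrip itself, named after its values were seen, had 249 to 341 counts in wild type and 626 to 830 in the Trex1-/- libraries. More than 100 reads of 4 Y-linked genes were present in each of wild-type replicate 3, the 3 PBS libraries and SN-011 replicate 2, while Xist was present in the other 4 libraries. A second fit of each comparison held a Y-linked term, which is 1 for the 5 libraries with Y-linked reads. Because all PBS libraries carried such reads, that term was estimated from the wild-type and SN-011 groups alone.

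Cholesterol is built from acetyl-CoA through mevalonate and isoprenoid intermediates to squalene, which is then closed into rings and trimmed to cholesterol. The genes of this route are switched on by the transcription factor SREBP2, the product of Srebf2. When sterols are plentiful, INSIG proteins hold SREBP2 and its escort SCAP in the endoplasmic reticulum. When sterols are scarce, SREBP2 is cleaved by proteases and enters the nucleus, where it also raises Insig1 and its own gene. Kidney cells can both make cholesterol and take it up from lipoproteins.

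The letters of 3 promoters are shown because these genes stand for an early enzyme of the route, the activator and the feedback inhibitor. Each stretch lies on the plus strand, ends just before the first annotated exon base or sooner, and comes from RefSeq on GRCm38.p6. Capitals mark TCACNCCA, a core of sites bound by SREBP proteins, and ATTGG, the inverted form of the CCAAT box bound by NF-Y. The stretches are chr13:119690101-119690350 for Hmgcs1, chr15:82147019-82147180 for Srebf2 and chr5:28071162-28071362 for Insig1.
Hmgcs1: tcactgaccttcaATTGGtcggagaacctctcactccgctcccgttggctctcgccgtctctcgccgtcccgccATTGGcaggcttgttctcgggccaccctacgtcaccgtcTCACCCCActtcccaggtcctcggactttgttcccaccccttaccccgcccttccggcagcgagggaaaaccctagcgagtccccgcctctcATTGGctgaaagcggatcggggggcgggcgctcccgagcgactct
Srebf2: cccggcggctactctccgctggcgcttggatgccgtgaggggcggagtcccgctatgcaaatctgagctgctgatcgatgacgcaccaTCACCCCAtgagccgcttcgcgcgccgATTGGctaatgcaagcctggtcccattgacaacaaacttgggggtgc
Insig1: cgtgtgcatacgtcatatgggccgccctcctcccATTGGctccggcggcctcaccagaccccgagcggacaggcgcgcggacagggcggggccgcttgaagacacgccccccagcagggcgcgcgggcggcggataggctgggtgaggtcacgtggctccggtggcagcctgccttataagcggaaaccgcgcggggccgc

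Promoter windows of 300 bases were in the table for 6 of the 8 genes, and Sqle and Fdps had no entry. On either strand, TCACNCCA was found in 2 of the 6, Hmgcs1 and Srebf2, and in 4.97% of 27025 genes with a window. The longer form TCACNCCAC, which contains the shorter one and was searched first, was found in Hmgcs1 and in 1.44% of all genes. ATTGG was found in 6 of 6 and in 41.1% of all genes, and the GC box GGGCGG in 6 of 6 and in 38.2% of all genes. Among 51 other genes of the sterol pathway the shares were 5.88% for TCACNCCA, 62.7% for ATTGG and 66.7% for GGGCGG. These matches describe letters in the windows and no binding was measured.

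The levels of the 8 genes were far apart. Per kilobase of exon, the wild-type means were 87.8 CPM for Hmgcs1, 26.4 for Srebf2, 18.9 for Insig1, 15.6 for Sqle, 7.18 for Idi1, 5.96 for Dhcr7, 3.01 for Lss and 0.255 for Fdps. Insig1 and Sqle overlapped in this order, as did Idi1 and Dhcr7, and every other pair of neighbours was separated in all 3 wild-type libraries. The length used was the union of all annotated exons, 10787 bases for Lss, so the order depends partly on the annotation. Before division by length, the wild-type mean of Lss (32.5 CPM) was above that of Idi1 (25.2 CPM). In PBS kidneys Sqle (17.9 CPM per kilobase) stood above Insig1 (11.2) in all 3 libraries, and Idi1 overlapped Insig1.

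**Figure D1:**
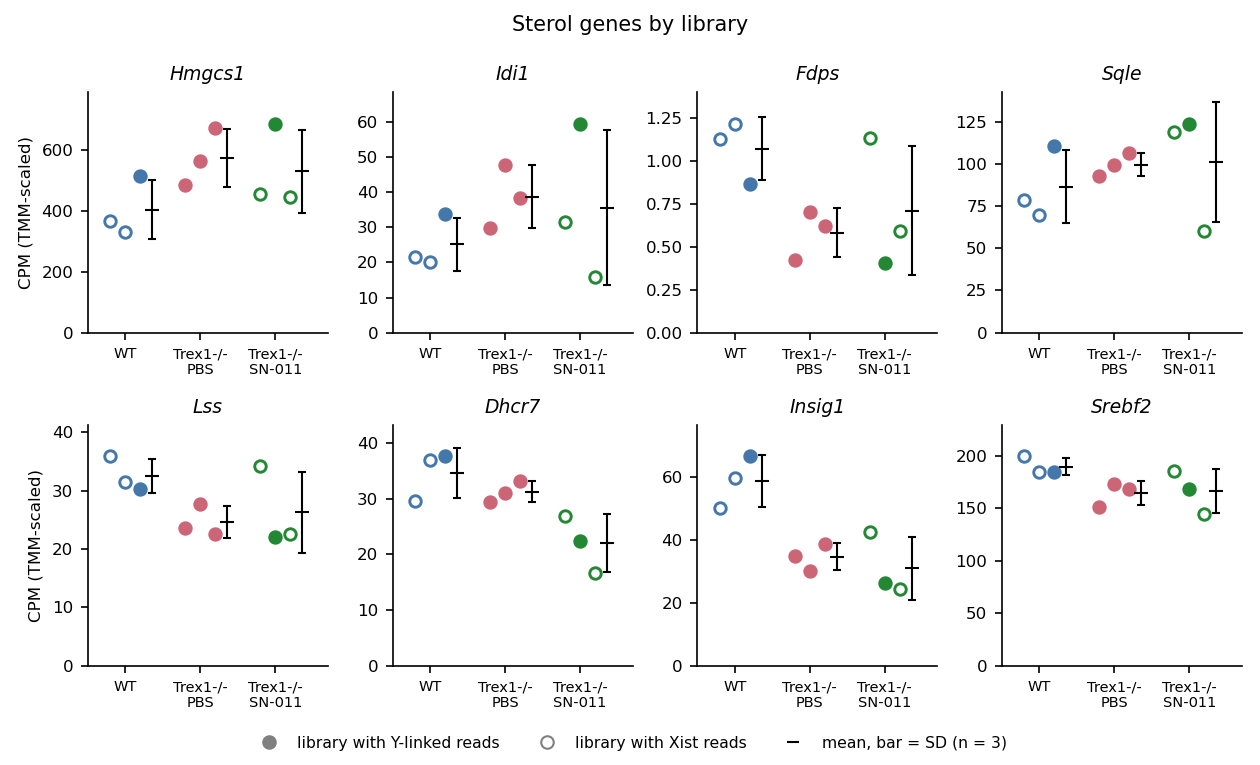
TMM-scaled CPM of the 8 genes (y axis, linear from 0, a separate scale for each gene) in the 3 libraries of each group (x axis), with filled points for libraries with Y-linked reads, open points for libraries with Xist reads, and the mean with its SD (n = 3) beside them. Insig1 lies lower in all 6 Trex1-/- libraries than in the 3 wild-type libraries, whereas Hmgcs1 and Idi1 overlap between groups.

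Among the early enzymes, Hmgcs1 and Idi1 had higher means and Fdps a lower mean in Trex1-/- PBS kidneys than in wild type, and none of these differences passed the test. A gene is called here at a Benjamini-Hochberg adjusted p under 0.05 over 16646 genes in the quasi-likelihood F test of edgeR. In Trex1-/- PBS against wild type this rule called 0 of the 8 genes and 1.88% of all genes tested.

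Hmgcs1 (ENSMUSG00000093930; GRCm38 chromosome 13, 119690379 to 119708260, plus strand) encodes the cytosolic synthase that makes HMG-CoA, the precursor of mevalonate. Wild-type replicates 1, 2 and 3 had 367, 330 and 513 CPM. The PBS replicates had 483, 563 and 673 CPM, and the SN-011 replicates 456, 686 and 446 CPM. The highest wild-type library, replicate 3, reached the lower end of the PBS range, and SN-011 replicate 2 stood well above the other 2 of its group. The means were 404 ± 96.8, 573 ± 95.3 and 530 ± 136 CPM (SD, n = 3). PBS was above wild type by 0.51 on the log2 scale (95% interval 0.03 to 0.98, edgeR adjusted p 0.296), SN-011 above wild type by 0.39 (-0.08 to 0.86, adjusted p 0.365), and SN-011 against PBS differed by -0.11 (-0.59 to 0.36, adjusted p 0.875).

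Idi1 (ENSMUSG00000058258; chromosome 13, 8885501 to 8892451, plus strand) encodes the isomerase that interconverts isopentenyl and dimethylallyl diphosphate, the building blocks of isoprenoids. Its levels were 21.6, 20.1 and 33.8 CPM in wild type, 29.9, 47.9 and 38.3 CPM with PBS, and 31.4, 59.6 and 15.9 CPM with SN-011. The SN-011 group spanned the whole range of the other groups, with its replicate 2 the highest and its replicate 3 the lowest of all 9 libraries. PBS against wild type gave a log2 difference of 0.62 (-0.25 to 1.50, edgeR adjusted p 0.495) and SN-011 against PBS -0.12 (-0.99 to 0.75, adjusted p 0.932). Of the windows of 100 bases along its exons and junctions, 21.9% also occur in other annotated genes, mainly in Gm13502, which had 4 to 14 counts.

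Fdps (ENSMUSG00000059743; chromosome 3, 89093588 to 89101959, minus strand) encodes farnesyl diphosphate synthase, at the branch to sterols, ubiquinone and protein prenylation. It had only 24, 27 and 15 counts in wild type, 7, 12 and 10 with PBS and 20, 7 and 10 with SN-011. PBS lay below wild type in every library, while SN-011 replicate 1 lay within the wild-type range. PBS against wild type differed by -0.88 on the log2 scale (-1.78 to 0.03, edgeR adjusted p 0.340). The annotation places 85.9% of its 1308 coding bases in exons of Gm43738 on the same strand, which itself had 0 to 1 counts. Pseudogene copies such as Gm3571 (30 to 95 counts) also share windows with it. Its counts cannot stand for the level of farnesyl diphosphate synthase mRNA.

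Of the later enzymes, Sqle was alike in its group means, Lss was lower in PBS libraries than in wild type, and Dhcr7 was lowest with SN-011. Sqle (ENSMUSG00000022351; chromosome 15, 59315077 to 59331192, plus strand) encodes squalene monooxygenase, which adds oxygen to squalene before ring closure. It had 78.4, 69.9 and 111 CPM in wild type, 92.6, 99.5 and 106 CPM with PBS, and 119, 124 and 60.0 CPM with SN-011. The PBS libraries fell inside the wild-type range, and both the highest and the lowest level came from SN-011 replicates. PBS against wild type was 0.20 on the log2 scale (-0.35 to 0.76, edgeR adjusted p 0.747), and SN-011 against PBS was 0.02 (-0.53 to 0.58, adjusted p 0.984).

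Lss (ENSMUSG00000033105; chromosome 10, 76531588 to 76557138, plus strand) encodes lanosterol synthase, which forms the sterol rings. Its levels were 35.8, 31.4 and 30.2 CPM in wild type, 23.6, 27.7 and 22.5 CPM with PBS and 34.2, 22.1 and 22.5 CPM with SN-011. All PBS libraries were below all wild-type libraries, and SN-011 replicate 1 was within the wild-type range. The log2 difference of PBS from wild type was -0.40 (-0.77 to -0.03, edgeR adjusted p 0.295), and that of SN-011 from wild type was -0.31 (-0.68 to 0.07, adjusted p 0.369).

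Dhcr7 (ENSMUSG00000058454; chromosome 7, 143823145 to 143848410, plus strand) encodes the reductase that turns 7-dehydrocholesterol into cholesterol. It had 29.5, 36.9 and 37.6 CPM in wild type, 29.5, 31.0 and 33.3 CPM with PBS and 27.0, 22.4 and 16.7 CPM with SN-011. The SN-011 libraries were below all 6 others, and the PBS and wild-type libraries overlapped. SN-011 against PBS was -0.50 on the log2 scale (-0.87 to -0.14, edgeR adjusted p 0.298), and SN-011 against wild type was -0.65 (-1.02 to -0.29, adjusted p 0.0860). The second of these was called in 5 of 19 alternative fits, whose adjusted p ran from 0.0107 to 0.242, and leaving out SN-011 replicate 1 alone gave 0.0403.

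Insig1 and Srebf2, the regulators among the 8 genes, had lower means in both Trex1-/- groups than in wild type, with the larger difference at Insig1. Insig1 (ENSMUSG00000045294; chromosome 5, 28071363 to 28078662, plus strand) encodes the membrane protein that retains SREBP proteins in the endoplasmic reticulum. Wild-type libraries had 49.9, 59.4 and 66.4 CPM, PBS libraries 35.0, 30.1 and 38.7 CPM, and SN-011 libraries 42.4, 26.1 and 24.3 CPM. All 6 Trex1-/- libraries were below all 3 wild-type libraries, and the PBS and SN-011 libraries overlapped. The means were 58.6 ± 8.27, 34.6 ± 4.31 and 30.9 ± 9.98 CPM (SD, n = 3).

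For Insig1 the log2 difference of PBS from wild type was -0.76 (-1.21 to -0.31, edgeR adjusted p 0.0989), and that of SN-011 from wild type was -0.92 (-1.37 to -0.47, adjusted p 0.0604). Neither was called, and each was called in 6 of 19 alternative fits. Over these fits the adjusted p ran from 0.00647 to 0.341 for PBS against wild type, at log2 differences of -0.87 to -0.66. For SN-011 against wild type it ran from 7.72e-04 to 0.175, at differences of -1.22 to -0.77. Without SN-011 replicate 1 the adjusted p values were 0.0149 and 0.00542, and without SN-011 replicate 2 the first was 0.0484. SN-011 against PBS differed by -0.16 (-0.61 to 0.29, adjusted p 0.797).

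Srebf2 (ENSMUSG00000022463; chromosome 15, 82147181 to 82205379, plus strand) had 199, 185 and 185 CPM in wild type, 151, 173 and 169 CPM with PBS and 186, 169 and 145 CPM with SN-011. All PBS libraries lay below all wild-type libraries, and SN-011 replicate 1 lay within the wild-type range. The differences were small, at -0.21 on the log2 scale for PBS against wild type (-0.45 to 0.03, edgeR adjusted p 0.385) and 0.02 for SN-011 against PBS (-0.22 to 0.26, adjusted p 0.964). mRNA does not show how much SREBP2 protein was processed or reached the nucleus.

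**Figure D2:**
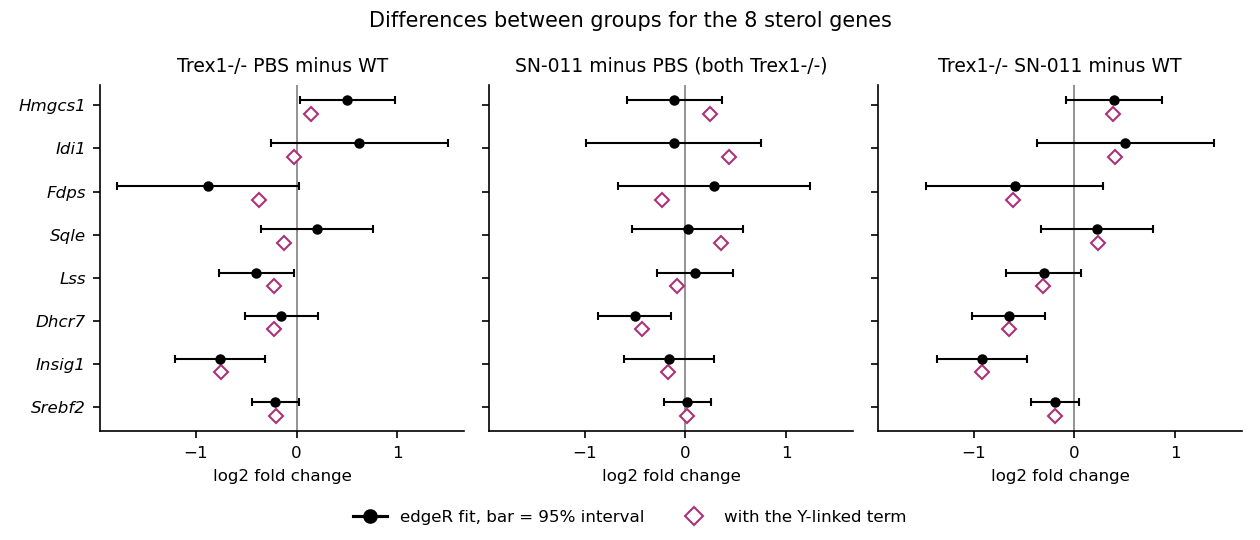
log2 fold change (x axis) of the 8 genes (y axis) in each of the 3 comparisons, where black points are the edgeR estimates with 95% intervals and open diamonds the estimates with the Y-linked term. Of the 8 genes, the Insig1 interval lies below 0 in both comparisons with wild type and that of Dhcr7 in both comparisons of SN-011, while the diamonds of Idi1 and Fdps move most and those of Insig1 and Srebf2 hardly move.

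In Trex1-/- PBS against wild type, 3 of the 8 genes were above 0 and 5 below, with a median log2 difference of -0.18 beside 0.0028 over all genes tested. With the Y-linked term, 7 of the 8 lay below 0, all but Hmgcs1, beside 49.2% of all genes, at a median of -0.21. At an unadjusted p under 0.05 stood 3 of the 8 (Hmgcs1, Insig1 and Lss) and 15.2% of all genes. PBS libraries lay wholly below wild type for 4 of the 8 (Insig1, Fdps, Lss and Srebf2), against 12.3% of all genes. They lay wholly above for 0 of the 8, against 13.1%. Fdps is included in all tallies, medians and means of the 8 genes, although its counts cannot stand for its mRNA level. By other tools, the DESeq2 Wald test and the edgeR exact test each called 1 of the 8 genes, Insig1, beside 4.36% and 4.12% of all genes, and limma-voom called 0, beside 1.89%.

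SN-011 against PBS asked whether blocking STING shifted these genes within the knockout, and edgeR called 0 of the 8 and 0% of all genes tested. At an unadjusted p under 0.05 there was 1 of the 8, Dhcr7, beside 11.4% of all genes, and Dhcr7 was also the only one whose groups did not overlap (lower in 8.41% of all genes). The DESeq2 Wald test, the edgeR exact test and limma-voom called 0 of the 8, beside 1.1%, 0.763% and 0% of all genes. The median difference was -0.05. Both comparisons use the same PBS libraries, so a high or low PBS value enters them with opposite sign.

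In SN-011 against wild type edgeR called 0 of the 8 and 1.28% of all genes. Insig1 and Dhcr7 were the 2 with an unadjusted p under 0.05, beside 18% of all genes, and also the 2 whose SN-011 libraries lay wholly below wild type, beside 9.99% of all genes. The DESeq2 Wald test and the edgeR exact test called both, beside 4.9% and 3.59% of all genes, and limma-voom called Insig1 alone (adjusted p 0.0497), beside 1.08%. The median was -0.25.

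With the Y-linked term, Hmgcs1 in PBS against wild type went from 0.51 to 0.14 on the log2 scale (edgeR adjusted p 0.773) and Idi1 from 0.62 to -0.03 (adjusted p 0.985). Fdps went from -0.88 to -0.38 and Lss from -0.40 to -0.23 (adjusted p 0.712), whereas Insig1 was at -0.75 (adjusted p 0.216) and Srebf2 at -0.20. Within the libraries that had Y-linked reads, 1 of wild type and 3 of PBS, the log2 ratios were 0.16 for Hmgcs1, 0.19 for Idi1 and -0.94 for Insig1. With the term, 0 of the 8 genes were called by edgeR in PBS against wild type and 1.19% of all genes. The ratios have no test, since a single wild-type library stands on one side.

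The term itself, libraries with Y-linked reads against those without, was called for 2 of the 8 genes and for 3.65% of all genes. It was called higher for 2.51% of all genes. Hmgcs1 was higher with Y-linked reads by 0.58 (SE 0.122, edgeR adjusted p 0.0267) and Idi1 by 1.03 (SE 0.248, adjusted p 0.0485). In wild type the only library with such reads had the highest level of both genes, and so did the only one in the SN-011 group. For Sqle the term was 0.53 (SE 0.199, adjusted p 0.196). With 1 library against 2 in each of 2 groups, the term and the particular libraries cannot be told apart.

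In SN-011 against wild type, the fit with the Y-linked term called Insig1 (-0.92, edgeR adjusted p 0.0326) and Dhcr7 (-0.65, adjusted p 0.0491), as it did 3.94% of all genes. Both groups held 1 library with Y-linked reads and 2 with Xist, so the sizes of the differences hardly moved. Within the libraries with Xist, 2 in each group, SN-011 against wild type gave log2 ratios of -0.71 for Insig1, -0.61 for Dhcr7 and 0.37 for Hmgcs1.

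Insig1 was also set beside markers of other cells. The tissue was whole kidney, in which fewer cells of a type and less RNA per cell cannot be told apart. Of 7 leukocyte genes, all were detected in every library, and their summed level was 47.4 to 67.8 CPM in wild type, between 92.8 and 111 CPM with PBS and 44.7 to 89.3 CPM with SN-011. The library with the highest Insig1 of its group had the highest leukocyte sum in wild type and PBS (replicate 3 of each) and the lowest in SN-011 (replicate 1, 44.7 CPM). All 6 adipocyte genes were detected in every library, with sums of 30.2 to 102 CPM in wild type, between 19.5 and 50.5 CPM with PBS and 15.6 to 54.8 CPM with SN-011. The 5 adipocyte genes tested had median log2 differences from wild type of -0.83 with PBS and -1.13 with SN-011, and edgeR called 0 of them. The library with the highest Insig1 of its group also had the highest adipocyte sum in wild type and SN-011 but not in PBS, and the library with the lowest Insig1 had the lowest sum in PBS but not in wild type or SN-011. Of the adrenal genes, Nr5a1 was at 0 in all 9 libraries and Cyp11b1 at 0 in 8, and the 7 summed to 4.97 to 8.25 CPM, mostly Star. The 4 erythroid genes summed to 527 to 1697 CPM in wild type, between 301 and 630 CPM with PBS and 91.2 to 219 CPM with SN-011. The library with the highest Insig1 of its group had the highest erythroid sum in wild type and PBS and the lowest in SN-011. The erythroid genes had a median log2 difference from wild type of -0.97 with PBS and -2.48 with SN-011, where the globin genes Hba-a1 (-2.92, edgeR adjusted p 0.0205) and Hbb-bs (-2.58, adjusted p 0.0424) were called lower.

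Of the 6 proximal tubule genes, Slc5a2, the glucose transporter SGLT2, was called lower in PBS against wild type (-0.71, edgeR adjusted p 0.0163), and the other 5 were not called. Slc22a6, an organic anion transporter of the same list, had 632 to 907 CPM in the 5 libraries with Y-linked reads and 317 to 368 CPM in the other 4, and PBS differed from wild type by 0.75 (adjusted p 0.359). The sum of 6 distal nephron and collecting duct genes was 11070 to 12712 CPM in wild type and 9899 to 10661 CPM with PBS, without overlap, and 10293 to 11372 CPM with SN-011, and 0 of these 6 genes were called by edgeR. The part of any of these cell types in the differences of the sterol genes was not tested.

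The wider sterol pathway was read from 7 lists of 70 genes, of which 66 were tested. In Trex1-/- PBS against wild type, edgeR called 2 of the 66 lower, beside 0.439% of all genes, and 0 higher, beside 1.44%. At an unadjusted p under 0.05 stood 11 lower and 3 higher, beside 7.58% and 7.63% of all genes, and the median was -0.01. The DESeq2 Wald test, the edgeR exact test and limma-voom called the same 2 genes, Mylip and Abca1, and no other of the lists. Mylip was the 1 gene called among 11 of sterol uptake and transport (median -0.12, with 7 below 0), and Abca1 the 1 called among 8 of sterol efflux, LXR targets and esterification (median -0.06, with 4 below 0). These lists had 3 and 2 genes at an unadjusted p under 0.05, where 15.2% of all genes stood.

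Mylip (ENSMUSG00000037295; chromosome 13, 45389742 to 45412022, plus strand) encodes a ubiquitin ligase that limits the uptake of lipoproteins. It had 85.6, 94.0 and 82.9 CPM in wild type, 58.8, 46.4 and 39.2 CPM with PBS and 56.2, 47.7 and 48.7 CPM with SN-011. Every Trex1-/- library was below every wild-type library. Against wild type it fell by 0.86 on the log2 scale with PBS (edgeR adjusted p 0.00925, SE 0.137) and by 0.78 with SN-011 (adjusted p 0.0268). Of 19 alternative fits 17 called the first, with an adjusted p of 1.95e-06 to 0.0595. The Y-linked term gave 0.0447. The calls were lost without wild-type replicate 2 (0.0564) and without PBS replicate 2 (0.0595). The second was called in 15, with an adjusted p of 4.81e-05 to 0.117. It was lost when replicate 1 (0.0978) or 2 (0.117) of wild type, replicate 2 of PBS (0.0532) or replicate 3 of SN-011 (0.0558) was left out.

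Abca1 (ENSMUSG00000015243; chromosome 4, 53030787 to 53159895, minus strand) encodes the transporter that exports cholesterol to apolipoprotein A-I. Its levels were 46.2, 50.8 and 65.3 CPM in wild type, 35.3, 28.8 and 27.9 CPM with PBS and 35.4, 30.8 and 41.4 CPM with SN-011. Again no Trex1-/- library reached the wild-type range. The log2 difference of PBS from wild type was -0.82 (edgeR adjusted p 0.0254, SE 0.156), and that of SN-011, which was not called, was -0.59 (adjusted p 0.0919). The first was called in 15 of 19 alternative fits, with an adjusted p of 9.36e-05 to 0.127. The Y-linked term ended this call at a log2 difference of -0.87 (adjusted p 0.0501). It was likewise lost when PBS replicate 2 (0.127), PBS replicate 3 (0.106) or replicate 2 of wild type (0.0739) was left out, at differences of -0.86 to -0.76.

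**Figure D3:**
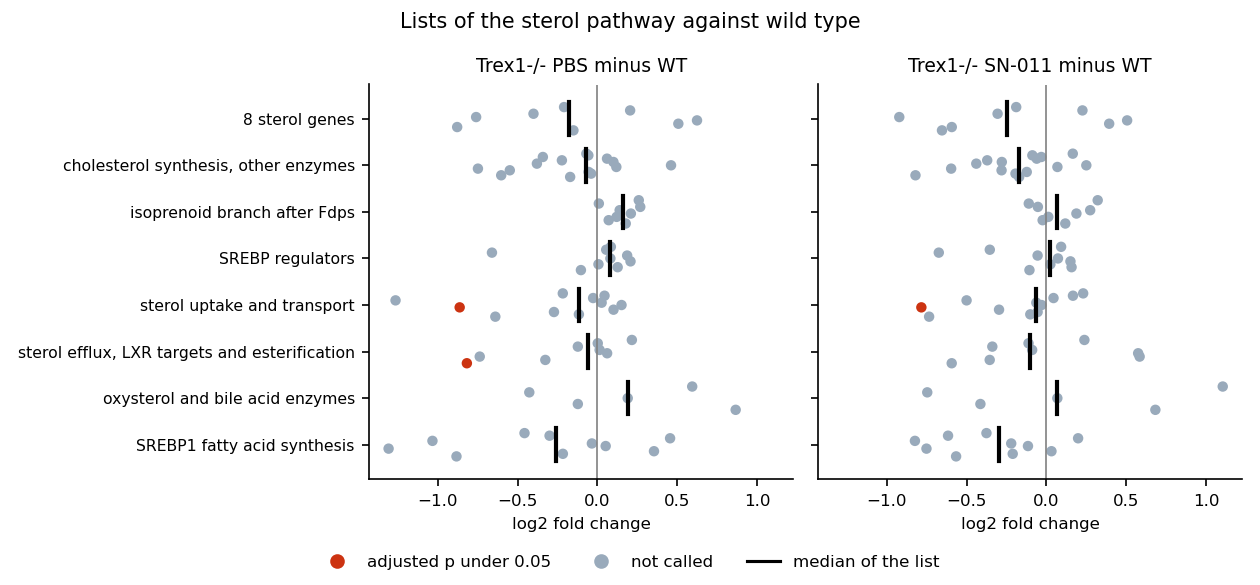
log2 fold change against wild type (x axis) of each tested gene of the 8 sterol genes and of 7 pathway lists (y axis), for Trex1-/- PBS on the left and Trex1-/- SN-011 on the right, with a black bar at the median of each list. Red points are the genes with an edgeR adjusted p under 0.05, Mylip in both panels and Abca1 in the left panel, and the genes of every list scatter on both sides of 0 except the isoprenoid branch in the left panel, where all 8 lie above 0.

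Among the 15 other enzymes of cholesterol synthesis, 0 were called by edgeR in any comparison, 11 lay below 0 in PBS against wild type (median -0.07, with 3 at an unadjusted p under 0.05) and 12 in SN-011 against wild type (median -0.17, with 2). Of all genes, 49.4% and 50.5% lay below 0, and 15.2% and 18% had an unadjusted p under 0.05. Fdft1, the squalene synthase, had 51.3, 50.3 and 50.7 CPM in wild type against 31.2, 31.9 and 41.0 CPM with PBS, and 56.2, 33.8 and 35.3 CPM with SN-011. It did not overlap between wild type and PBS, at -0.55 (adjusted p 0.187). With the Y-linked term 1 of the 15, Cyp51, which removes a methyl group from lanosterol and is named after its value was seen, was called lower in SN-011 against wild type (-0.89, edgeR adjusted p 0.0267), beside 3.94% of all genes called in that fit.

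The 8 genes of the isoprenoid branch, which lead from farnesyl diphosphate to ubiquinone, dolichol and prenylated proteins, all lay above 0 in PBS against wild type (median 0.16), as did 50.6% of all genes. None was called by edgeR, and 1 had an unadjusted p under 0.05, beside 15.2% of all genes. With the Y-linked term 3 of the 8 lay below 0. Ggps1, which makes geranylgeranyl diphosphate, had 29.0, 25.7 and 24.8 CPM in wild type, 31.8, 31.4 and 28.8 CPM with PBS and 31.3, 30.3 and 29.1 CPM with SN-011. Its difference of PBS from wild type was 0.21 (edgeR adjusted p 0.322).

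Of the 9 SREBP regulators, 0 were called by edgeR in any comparison. In PBS against wild type, SN-011 against PBS and SN-011 against wild type, 1, 2 and 2 had an unadjusted p under 0.05. The shares of all genes were 15.2%, 11.4% and 18%. In PBS against wild type 7 of the 9 lay above 0 (median 0.08), beside 50.6% of all genes. In SN-011 against wild type 5 of the 9 did (median 0.02), beside 49.5%. With the Y-linked term 1 of the 9, Tmem97, also named after its value was seen, was called lower in SN-011 against wild type (-0.36, edgeR adjusted p 0.0462), beside 3.94% of all genes called in that fit. Srebf1, which encodes the SREBP1 factors that drive fatty acid synthesis, had 119, 151 and 155 CPM in wild type, 80.9, 83.4 and 104 CPM with PBS, and 134, 67.2 and 64.5 CPM with SN-011. PBS lay below wild type in every library, and SN-011 replicate 1 was again within the wild-type range. The log2 differences from wild type were -0.66 with PBS (edgeR adjusted p 0.254) and -0.67 with SN-011 (adjusted p 0.205).

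The list of fatty acid synthesis had medians of -0.26 and -0.30 against wild type in PBS and SN-011, with 0 of its 10 genes called by edgeR, beside 1.88% and 1.28% of all genes, and 3 and 1 at an unadjusted p under 0.05, beside 15.2% and 18%. Elovl6, which lengthens palmitate, had 94.8, 77.9 and 34.8 CPM in wild type, 30.0, 22.3 and 31.6 CPM with PBS and 57.7, 18.1 and 47.5 CPM with SN-011. In both mixed groups the library with Y-linked reads was the lowest. Its difference of PBS from wild type was -1.31 (edgeR adjusted p 0.171), which became -0.24 (adjusted p 0.672) when the Y-linked term was fitted. The difference of SN-011 from wild type was -0.75 (adjusted p 0.373), and with that term it was -0.78 and was called (adjusted p 0.0159).

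Of the 5 oxysterol and bile acid enzymes tested, 0 were called by edgeR in any comparison. Of all genes, 1.88% were called in PBS against wild type, 0% in SN-011 against PBS and 1.28% in SN-011 against wild type. In the same order, 1, 0 and 2 of the 5 had an unadjusted p under 0.05, beside 15.2%, 11.4% and 18% of all genes. One of these enzymes, Ch25h, which makes the 25-hydroxycholesterol that restrains SREBP processing, was low in every library. Its levels were 1.13, 1.04 and 1.45 CPM in wild type, 2.38, 2.57 and 1.62 CPM with PBS and 2.44, 1.85 and 1.48 CPM with SN-011. Both Trex1-/- groups lay above wild type in every library, by 0.86 (edgeR adjusted p 0.195) and 0.68 (adjusted p 0.264), and neither was called.

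**Figure D4:**
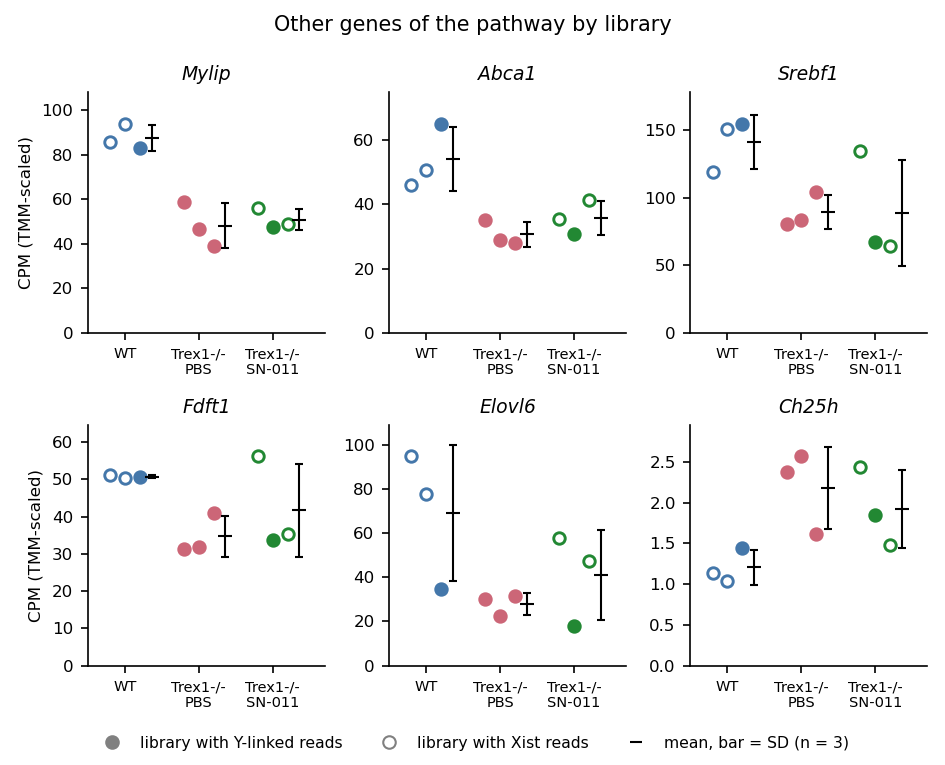
TMM-scaled CPM (y axis, linear from 0, a separate scale for each gene) of 6 further pathway genes in the 3 libraries of each group (x axis), with filled points for libraries with Y-linked reads, open points for libraries with Xist reads, and the mean with its SD (n = 3). Mylip and Abca1 lie lower in all 6 Trex1-/- libraries than in wild type, and the first SN-011 library from the left is near wild type for Srebf1 and Fdft1.

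Within the knockout, SN-011 against PBS gave 0 of 66 pathway genes called by edgeR, beside 0% of all genes, and 5 at an unadjusted p under 0.05, beside 11.4%, with a median of -0.04. The edgeR exact test and limma-voom called 0, and the DESeq2 Wald test called 1, Tmem97 (-0.40, adjusted p 0.0255), beside 1.1% of all genes. In SN-011 against wild type edgeR called Mylip alone, as the 1 lower gene of the 66 beside 0.457% of all genes, with 9 lower and 3 higher at an unadjusted p under 0.05, beside 8.13% and 9.88% of all genes. Limma-voom also called Mylip alone, the edgeR exact test added Abca1 and Cyp51, and the DESeq2 Wald test added these and Tmem97. Without the Y-linked term, Cyp51 was at a log2 difference of -0.82 (edgeR adjusted p 0.113). With the Y-linked term edgeR called 4 of the 66 in SN-011 against wild type, Mylip, Cyp51, Tmem97 and Elovl6, all lower, beside 3.94% of all genes in that fit and 1.28% without the term.

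The mean standardised log2 level of the 8 genes was lowest in SN-011 replicate 3, at -1.30, and highest in wild-type replicate 3, at 0.66. Of 14835 genes with a mean of at least 1 CPM, the 5 whose levels over the 9 libraries were most like it were Mbd3 (Pearson's r 0.946, Spearman's rho 0.783), 4930594M22Rik (0.910 and 0.750), Hsd3b3 (0.910 and 0.583), Nelfe (0.894 and 0.717) and Mtg2 (0.888 and 0.633). All 5 also had their lowest level in SN-011 replicate 3, which follows largely from picking them for their likeness to this profile. These values describe 9 libraries of 3 groups.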

How the data were processed

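Polyadenylated RNA of 9 mouse kidney libraries was sequenced in read pairs by a strand-specific protocol. The authors trimmed reads with Trimmomatic, aligned them to mm10 with HISAT2 and deposited raw counts of uniquely mapped pairs per Ensembl gene from featureCounts. Tool versions, annotation release and strand setting are not given in the sources used here. A pair that fits several genes equally well, or overlaps exons of more than 1 gene, is not expected in such counts. Of 54532 identifiers, 54495 matched GENCODE vM21 (GRCm38), which gave symbols, positions and exon lengths, and 37 did not.

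The tests used edgeR 4.0.16 in R 4.3.3. filterByExpr (10 reads in enough libraries, 15 in total) left 16646 genes. After TMM scaling, all 9 libraries entered 1 quasi-likelihood fit without covariate, and each comparison was tested two-sided with Benjamini-Hochberg adjustment over all genes, as the study used edgeR with TMM. Standard errors come from the F statistic and 95% intervals use its degrees of freedom. Library totals ran from 16118813 to 21928965, so the floor of 3 counts was 0.137 to 0.186 CPM before TMM scaling. Libraries of a group differed by 7.76 to 76.0 times the counting variance, so none was a library deposited again. This measure does not tell separate animals from separate preparations of one animal. Within wild type and within SN-011, however, the library with Y-linked reads and those with Xist cannot come from the same animal. The Y-linked term marks libraries with over 100 reads of Ddx3y, Kdm5d, Eif2s3y and Uty.

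The 8 genes, the pathway and marker lists and the Y-linked term were chosen with earlier results of these data known. From the lists, the genes named were those called in any comparison and the one with the smallest p of each list in PBS against wild type. The rule also named 2 pathway genes whatever their values, which are not reported here. The 19 alternatives were DESeq2 1.42.0 or upper-quartile scaling, no filter (30892 genes) or a mean of 50 counts (12756 genes), the DESeq2 Wald test, the edgeR exact test, limma-voom (limma 3.58.1), a replicate block, the Y-linked term, a fit of the 6 libraries compared, and each library left out. Promoters come from RefSeq on GRCm38.p6, and exon windows of 100 bases were searched in all annotated transcripts.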

Additional observations from a re-analysis of the deposited data

How the results depend on the processing

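With 3 libraries a group, counts of calls moved with several choices, and the causes were not tested. Genes called in PBS against wild type, 313, were 707 without the filter, 726 by the DESeq2 Wald test, 686 by the edgeR exact test, 751 with only the 6 libraries and 198 with the Y-linked term. They were 153 without PBS replicate 2 and 774 without SN-011 replicate 2. In SN-011 against PBS, 0 became 127, 183 (DESeq2) and 127 (exact test), and 0 to 519 with a library left out, the 519 without SN-011 replicate 2. In SN-011 against wild type, 213 became 607, 816, 597, 43 (6 libraries) and 656 (Y-linked term), and 38 to 376 with a library left out.

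In PBS against wild type, 1 of the 8 (Insig1) was called without the filter, by DESeq2, by the exact test and with 6 libraries. With a library left out the count was 0 to 1. Of all genes, the same settings called 707, 726, 686 and 751, and 153 to 774 with a library left out. In SN-011 against wild type, 2 (Insig1 and Dhcr7) were called without the filter, by DESeq2, by the exact test and with the Y-linked term. Limma-voom called 1, and 0 to 2 were called with a library left out, the 2 without SN-011 replicate 1. Of all genes, these settings called 607, 816, 597, 656 and 179, and 38 to 376 with a library left out. In SN-011 against PBS, 0 were called in all 19, which called 0 to 519 of all genes. Of the pathway genes, 6 (no filter), 10 (6 libraries) and 1 (Y-linked term) were called in PBS against wild type in place of 2. With a library left out they were 0 to 6. Of all genes, these settings called 707 (of 30892 tested), 751 and 198. In SN-011 against PBS the pathway genes called were 1 (DESeq2) and 0 to 5 (a library left out) in place of 0. Of all genes, these settings called 183 and 0 to 519. In SN-011 against wild type the pathway genes called were 3 (no filter), 4 (DESeq2), 3 (exact test) and 4 (Y-linked term) in place of 1. With a library left out they were 0 to 5. Of all genes, the named settings called 607, 816, 597 and 656. The median of the 8 genes ran from -0.22 to -0.14, from -0.13 to 0.16 and from -0.41 to -0.15 with a library left out.

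Of 849 single-gene values under alternatives, 781 kept direction and side of the threshold and 29 changed sign, none of them from a called value. The Y-linked term turned Sqle to -0.12 and Idi1 to -0.029 in PBS against wild type. In SN-011 against PBS it turned Hmgcs1 to 0.24, Idi1 to 0.43, Fdps to -0.23, Lss to -0.083, Mylip to -0.0059 and Elovl6 to -0.54, and limma-voom turned Sqle to -0.050.
With a library left out, SN-011 against PBS ran for Hmgcs1 from -0.35 to 0.023, Sqle from -0.16 to 0.29, Idi1 from -0.71 to 0.24, Fdps from -0.22 to 0.56, Lss from -0.14 to 0.20, Srebf2 from -0.068 to 0.12, Mylip from -0.044 to 0.26, Fdft1 from -0.0060 to 0.41, Ggps1 from -0.060 to 0.012 and Srebf1 from -0.44 to 0.18. SN-011 against wild type ran for Idi1 from -0.087 to 0.86, the lower value without SN-011 replicate 2.
With the replicate block, 312, 0 and 231 genes and 0 of the 8 were called in the 3 comparisons, and no call on a gene named here changed. Correlations of deviations cannot decide whether the numbers mark a pairing. Of 9 same-number pairs, 5 had a correlation above 0.1 (-0.294 to 0.242), and pairs of different number reached 0.380. Of the 9 libraries, 3 correlated best with their own number. No alternative moved the median of all genes by over 0.1.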
